A study of Capra hircus with 4 samples.

Results

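The cells described here are fibroblasts of the goat pancreas that carried transcripts of HHIP, EDNRA or F3 and little PI16 or PCOLCE2. They were chosen by counts of unique molecular identifiers (UMIs, which mark single captured RNA molecules). A barcode had to hold at least 3000 UMIs and 500 genes, at least 1 PDGFRA UMI and at least 4 of the 7 genes DCN, LUM, PDGFRB, COL1A2, COL3A1, FBLN1 and DPT. It had to hold no PTPRC or PECAM1, under 3% of its UMIs in INS and in PPY, and under 5% in PRSS2, CLPS and SYCN together. Among these gated fibroblasts, a cell was a member when PI16 and PCOLCE2 together gave fewer than 3 UMIs and HHIP, EDNRA and F3 together gave at least 2. The rule found 66 cells among 6254 gated fibroblasts and 17982 cells in all. Since these 3 genes chose the members, their levels are given as a description and support nothing.

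The series is single-cell RNA sequencing of dissociated pancreas from 4 female Liuyang black goats, 2 at 6 months of age (called DY) and 2 at 10 days of age (called XY, the study's control). All were twin animals from commercial farms, untreated as far as the labels say, and every cell suspension was digested with enzymes and cleared of red blood cells and dead cells before 10x Genomics capture. The deposited matrix holds 4 libraries numbered 1 to 4, and which goat gave which library is not stated in the labels. Ages were therefore not compared, and every value below stands per library, with no test and no p-value.

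HHIP encodes a membrane protein that binds hedgehog ligands and limits their signal, and its transcription is raised by the hedgehog pathway itself. EDNRA encodes the endothelin receptor type A, which is found on smooth muscle, pericytes and many fibroblasts, and F3 encodes tissue factor, the cell surface protein that starts blood coagulation on cells around vessels. PI16 and PCOLCE2 mark fibroblasts of the adventitia and of connective tissue sheets in mouse and human organs.

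The 4 libraries held 43297855, 82817057, 65937591 and 55223412 UMIs, and 3203, 6618, 4832 and 3329 cells passed the depth limits. Gated fibroblasts numbered 1230, 2316, 1767 and 941. Of the kept cells, 68 shared a barcode with a kept cell of another library, and 0 of these were members. Scrublet's automatic threshold marked 62, 260, 113 and 3 cells in libraries 1 to 4, and no cell was removed on its score.

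Members made up 2.68% of gated fibroblasts in library 1 (33 cells, 95% exact binomial interval 1.85% to 3.75%). The share was 0.864% for the 20 cells of library 2 (0.528% to 1.33%) and 0.679% for the 12 cells of library 3 (0.351% to 1.18%). The 1 cell of library 4 gave 0.106% (0.00269% to 0.591%). Library 1 thus stood above the other libraries beyond counting error, and library 4 held almost none. These intervals, and all those below, cover counting error only. The limit on PI16 and PCOLCE2 can set part of this order, since the median gated fibroblast carried 8, 2, 5 and 31 UMIs of the pair in libraries 1 to 4.

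Without that limit the picture by library was different. Gated fibroblasts with at least 2 UMIs of HHIP, EDNRA and F3 numbered 585, and 519 of them (88.7%) had at least 3 UMIs of PI16 and PCOLCE2. They made up 26.7%, 3.24%, 3.45% and 12.8% of gated fibroblasts in libraries 1 to 4. The members are thus the 11.3% of such cells on the low side of the PI16 and PCOLCE2 limit. The limit fell inside a continuous spread of values: 18 members had 0 UMIs of the pair, 24 had 1 and 24 had 2, and a further 22 cells just outside the limit had 3. On the other limit, 40 members had exactly 2 UMIs of HHIP, EDNRA and F3, and 160 cells just outside had 1.

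**Figure D1:**
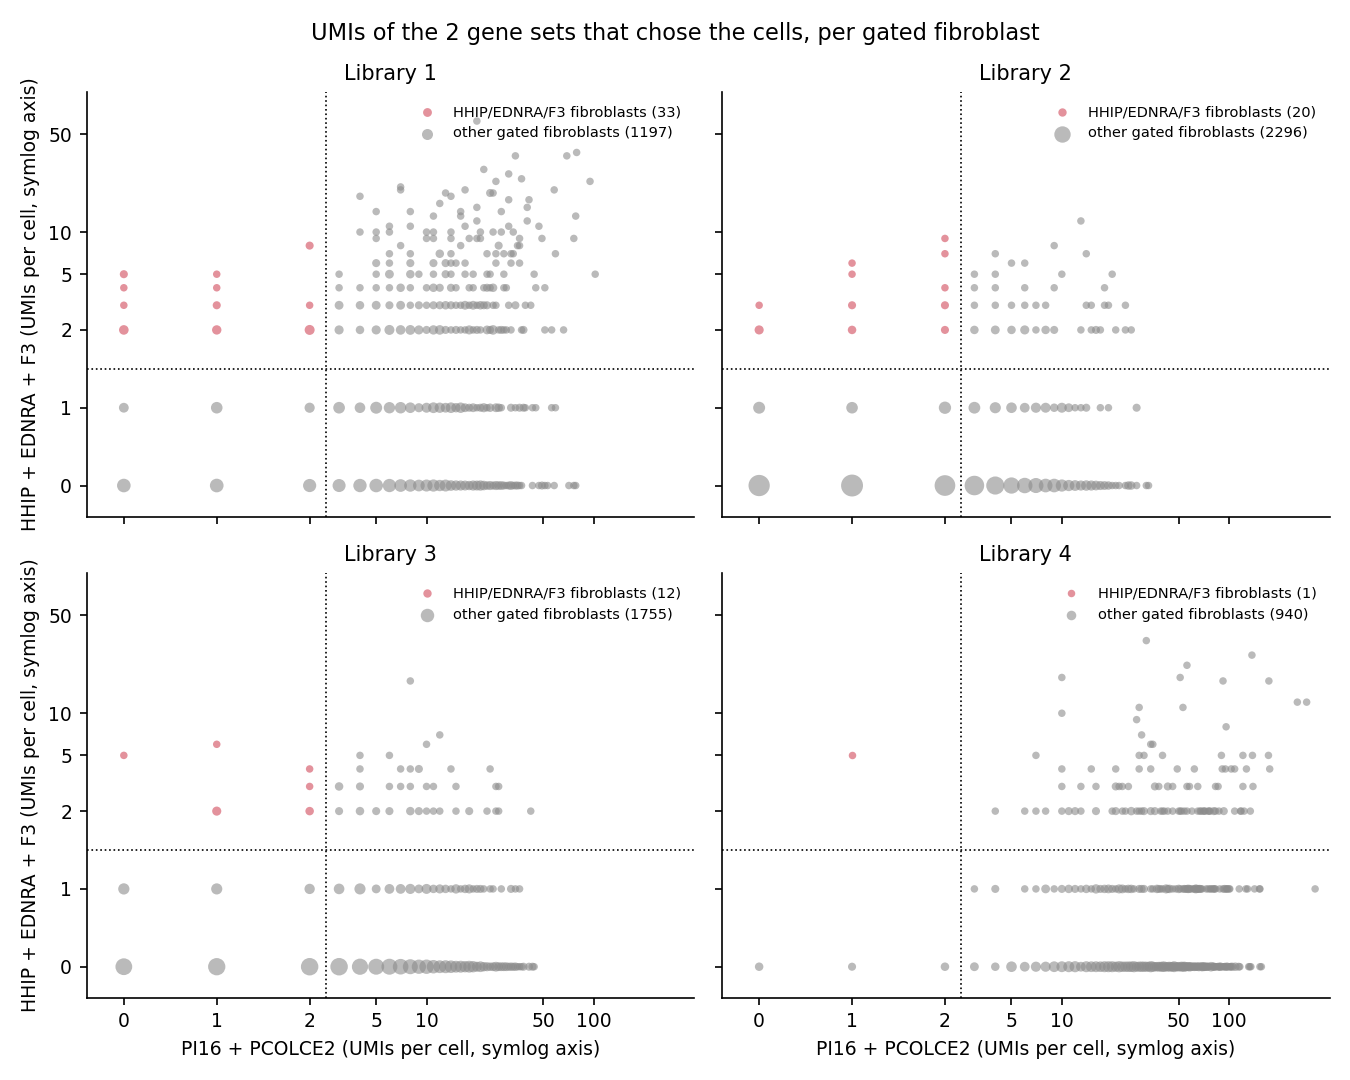
Each point is 1 combination of UMI counts found among gated fibroblasts, drawn larger where more cells share it, in a panel per library. UMIs of PI16 plus PCOLCE2 are on the horizontal axis and UMIs of HHIP plus EDNRA plus F3 on the vertical axis. Members lie in the upper left corner of each panel (33, 20, 12 and 1 cells in libraries 1 to 4), and most cells with at least 2 UMIs of the 3 genes lie to the right of the PI16 and PCOLCE2 limit.

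The remaining fibroblasts, which passed the gate with fewer than 3 UMIs of PI16 and PCOLCE2 and fewer than 2 of the 3 genes, numbered 177, 1195, 478 and 8 in libraries 1 to 4. The PI16/PCOLCE2 fibroblasts numbered 1020, 1101, 1277 and 932. The median member held 4183, 4374.5 and 5038 UMIs in libraries 1 to 3, against 3915, 4299 and 4754.5 in the remaining fibroblasts and 4920.5, 5601 and 6890 in PI16/PCOLCE2 fibroblasts. Members were thus close in depth to the remaining fibroblasts and shallower than PI16/PCOLCE2 fibroblasts. Levels below are counts scaled to 1e+06 UMIs (CPM) and summed over a class in a library, with member values for libraries 1, 2 and 3 in that order, since library 4 held a single member.

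F3 was the gene most members were chosen through. F3 was detected in 53 of the 66 members, EDNRA in 23 and HHIP in 12. F3 was the sole detected gene of the 3 in 35 members, EDNRA in 8 and HHIP in 2, while 20 members held 2 of the genes and 1 held all 3. HHIP and EDNRA were detected together in 4 members. Which gene was found differed by library: F3 was detected in 33 of 33 members of library 1, 16 of 20 of library 2 and 3 of 12 of library 3, and EDNRA in 5 of 33, 7 of 20 and 10 of 12. The label of fibroblasts with HHIP and EDNRA therefore goes against these data for most members, and they are called HHIP/EDNRA/F3 fibroblasts here.

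**Figure D2:**
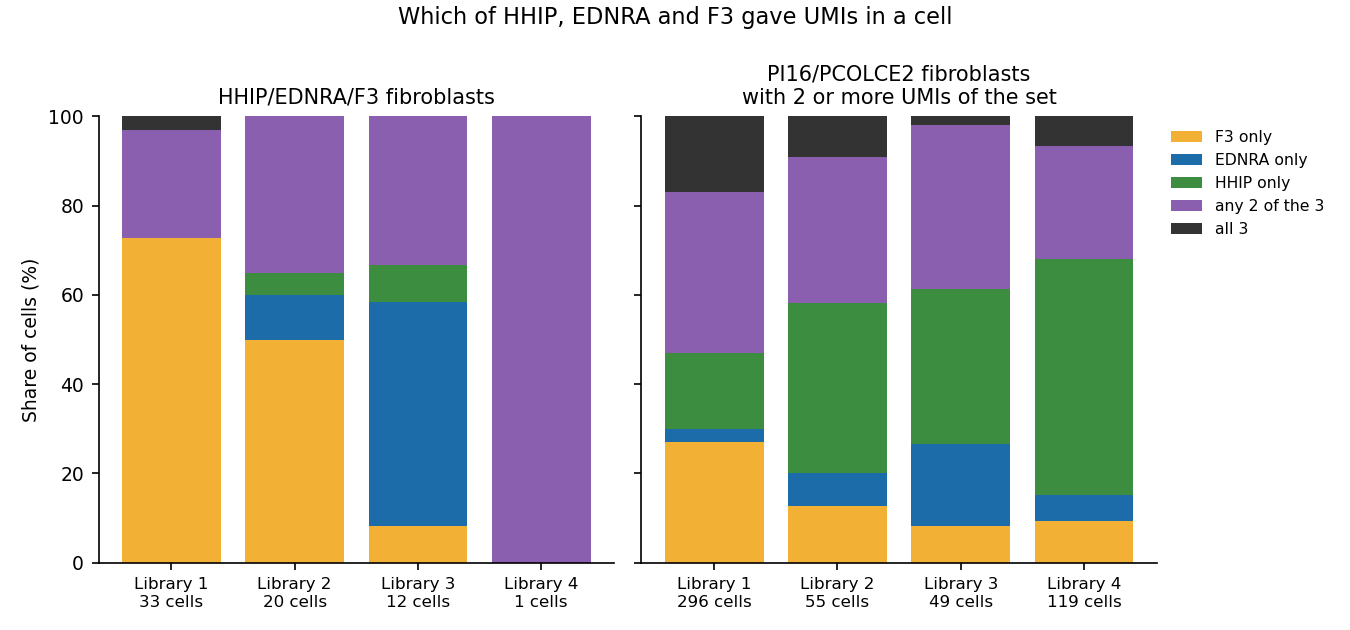
Stacked bars give the percent of cells in which F3 only, EDNRA only, HHIP only, 2 or all 3 of the genes were detected, for HHIP/EDNRA/F3 fibroblasts and for PI16/PCOLCE2 fibroblasts with at least 2 UMIs of the genes, by library. F3 alone fills most of the member bar of library 1 (24 of 33 cells) and EDNRA alone the largest part in library 3 (6 of 12 cells).

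In summed counts, HHIP stood at 68.8, 109 and 63.7 CPM in members, and at 1.36, 3.22 and 2.39 CPM in the remaining fibroblasts. EDNRA stood at 55.0, 141 and 398 CPM in members, against 1.36, 2.69 and 7.55 CPM in the remaining fibroblasts. F3 stood at 529.6, 467 and 79.6 CPM in members, against 50.1, 7.52 and 8.35 CPM in the remaining fibroblasts. In members F3 and EDNRA ran in opposite orders over the 3 libraries. Members were chosen on the sum of the 3 genes, so the rule can set part of this. Free RNA, read from barcodes with 10 to 100 UMIs, held HHIP at 16.3, 7.95 and 5.85 CPM, EDNRA at 2.29, 1.70 and 0 CPM, and F3 at 19.7, 7.95 and 2.93 CPM. The members' levels lay above those of free RNA for all 3 genes in libraries 1 to 3, and the remaining fibroblasts' HHIP levels lay below them. Both classes were chosen by UMIs of these genes, so this comparison with free RNA is a description and supports nothing.

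PI16 in members stood at 82.5, 97.8 and 127 CPM, against 73.2, 68.4 and 81.1 CPM in the remaining fibroblasts and 139, 86.9 and 84.9 CPM in free RNA. PCOLCE2 stood at 151, 130.4 and 127 CPM in members, against 159.9, 139 and 117 CPM in the remaining fibroblasts and 101, 83.5 and 41.0 CPM in free RNA. The members' PI16 level was thus below that of free RNA in library 1 and above it in libraries 2 and 3, and their PCOLCE2 level was above it in all 3. The rule capped PI16 and PCOLCE2 in both classes, so these orders are a description as well.

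Whether the 3 genes went together can be read without using a gene to choose the cells it is read in. Among fibroblasts with fewer than 3 UMIs of PI16 and PCOLCE2, HHIP was compared between cells with at least 2 UMIs of EDNRA and F3 and cells with 0. It stood at 51.6 CPM against 1.72 CPM in library 1 (3 of 31 cells against 1 of 139) and at 50.6 CPM against 3.94 CPM in library 2 (1 of 17 cells against 19 of 1139). EDNRA, in cells chosen by HHIP and F3, stood at 29.7 CPM against 1.72 CPM in library 1 (2 of 30 cells against 1 of 139) and at 39.6 CPM against 3.76 CPM in library 2 (3 of 16 cells against 17 of 1137). F3, in cells chosen by HHIP and EDNRA, could be read in library 3, at 52.7 CPM against 9.66 CPM (2 of 11 cells against 22 of 454). The direction was the same in each of these readings, but each rests on 1 to 3 positive cells.

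The PI16/PCOLCE2 fibroblasts gave the same reading with more cells. HHIP was detected in 40.2%, 36.0%, 28.0% and 31.6% of those with at least 2 UMIs of EDNRA and F3 in libraries 1 to 4, against 18.5%, 6.55%, 6.14% and 17.1% of those with 0. All 3 genes were found in 1 of the 66 members, against 64 of the 519 PI16/PCOLCE2 fibroblasts that held at least 2 UMIs of the set. At least 2 of the genes were found in 31.8% of members and in 45.7% of those 519 cells, at median depths of 4355 and 5945 UMIs.

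SERPINE2 and CCDC102B had been named as markers of these cells from earlier results of the same data, and the rule used neither. SERPINE2 encodes protease nexin 1, a secreted inhibitor of thrombin, plasmin and urokinase. In members it had 9, 22 and 7 counts in 5 of 33, 8 of 20 and 3 of 12 cells, and 1 count in the member of library 4. Its level was 61.9, 239 and 112 CPM in members, against 19, 6.63 and 16.3 CPM in the remaining fibroblasts, where 13 of 177, 19 of 1195 and 11 of 478 cells held it. The ratios were 3.26 (95% counting interval 1.25 to 8.09), 36.1 (20.3 to 62.8) and 6.84 (2.59 to 15.4), and no interval included 1. The highest single cell held 5 of the 9, 8 of the 22 and 4 of the 7 counts. Without it the ratios were 1.51 (0.362 to 4.80), 24.1 (12.0 to 45.6) and 3.12 (0.618 to 9.79), and the intervals of libraries 1 and 3 then included 1. SERPINE2 stood at 22.6, 3.41 and 0 CPM in free RNA. It was not called, because the call, described below, asked for 20 counts in the class with the higher level. Most members showed no SERPINE2 UMI. Against all PI16/PCOLCE2 fibroblasts its ratio was 0.244 (0.111 to 0.464) in library 1, so members lay below them there. In libraries 2 and 3 that ratio was 16.2 (9.68 to 25.9) and 9.64 (3.79 to 20.5).

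CCDC102B, which encodes a coiled-coil protein of the centrosome, was less regular. It stood at 138 CPM in members of library 1 (11 of 33 cells), 0 CPM in library 2 and 63.7 CPM in library 3 (2 of 12 cells), against 66.4, 5.01 and 10.3 CPM in the remaining fibroblasts. The ratios were 2.07 (1.17 to 3.55) in library 1 and 6.16 (1.56 to 17.8) in library 3, and the 0 counts of library 2 allow a level of up to 32.6 CPM. Library 2 therefore does not settle whether CCDC102B differed there at this depth. Without the member of highest CCDC102B the ratios were 1.82 (0.980 to 3.21) in library 1 and 3.44 (0.396 to 13.7) in library 3, which include 1. Against all PI16/PCOLCE2 fibroblasts, again without that member, the ratios were 1.32 (0.761 to 2.13) in library 1 and 5.08 (0.603 to 19.1) in library 3. These intervals include 1 too.

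**Figure D3:**
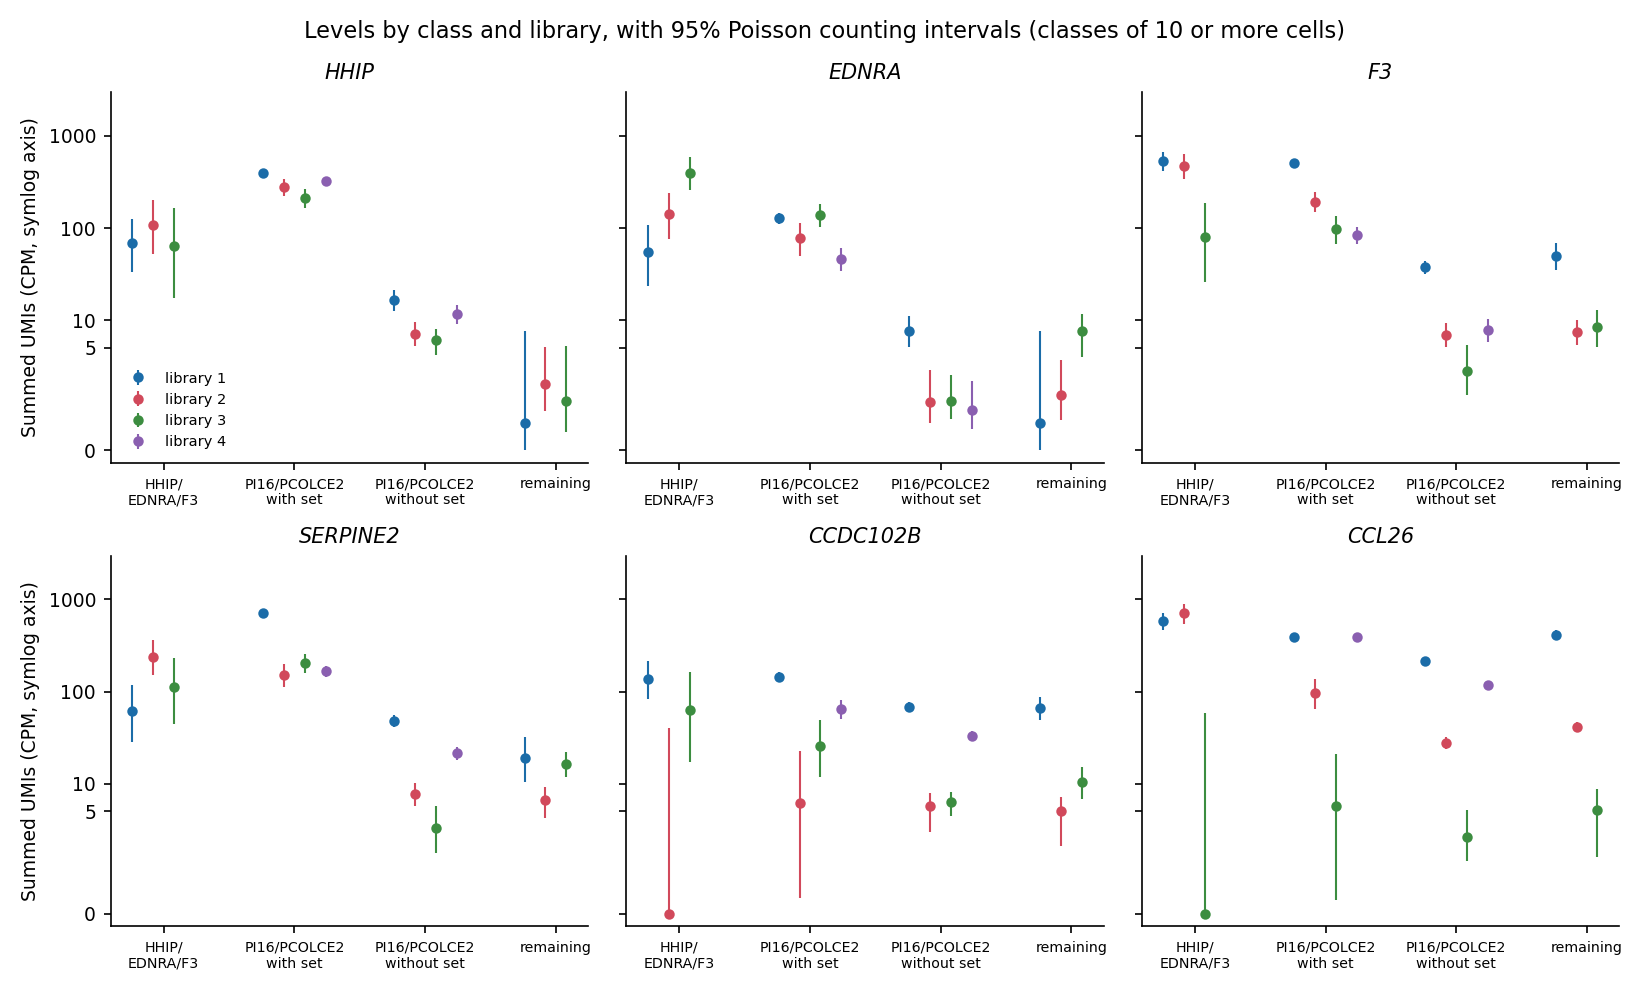
Levels in CPM (symmetric log axis, linear near 0) of HHIP, EDNRA, F3, SERPINE2, CCDC102B and CCL26 by class and library, with 95% Poisson counting intervals, for classes of at least 10 cells. Members lie above the remaining fibroblasts for SERPINE2 in libraries 1 to 3, while members hold 0 counts of CCDC102B in library 2 and of CCL26 in library 3.

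The transcriptome as a whole was then compared between members and the remaining fibroblasts. A gene was called when its log2 ratio was at least 1 or at most -1 in every library with at least 20 cells of both classes, which were libraries 1 and 2, and when the class with the higher level held 20 or more counts there. Where at least 20 counts were also expected in the class with the lower level, 543 genes were measured, and 1 was higher and 1 lower in members (0.184% each). The higher one was LOC102188618, a protein-coding gene with no name in RefSeq, at 426, 663 and 1657 CPM in members against 207, 211 and 867 CPM in the remaining fibroblasts. It was detected in 11 of 33, 8 of 20 and 7 of 12 members, and its ratios were 2.06 (1.51 to 2.78), 3.15 (2.39 to 4.07) and 1.91 (1.55 to 2.33). A single member held 46 of its 62 UMIs in library 1, and another 39 of 61 in library 2. Without the highest member the ratio was 0.552 (0.308 to 0.925) in library 1 and 1.19 (0.746 to 1.82) in library 2, so the call rests on these cells. In library 3 the ratio without it was 1.55 (1.23 to 1.94). LOC102188618 falls outside the rule for named genes and is named because it was the sole gene called higher. The lower one was SST, the hormone of delta cells, and 1132 of its 1144 counts among the remaining fibroblasts of library 1 came from a single cell.

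Without the demand on expected counts, 4928 genes were measured, 1 was called higher (0.0203%) and 93 were called lower (1.89%). These lower calls are limited by depth: 85 of the 93 had at most 3 member counts in each library and 13 had none. Several of the lowest are genes of other cell types. They include the epithelial keratins KRT19 and KRT18, the epithelial protease MMP7 and the trefoil peptide TFF3. The mucosal chemokine CXCL17 and CD74, the invariant chain of antigen-presenting cells, are among them as well. APOA1, an apolipoprotein, had 0 counts in members. It was at least 12.7-fold lower in library 1 and at least 5.65-fold lower in library 2, taking 3 counts per library as the floor. These bounds come from 194 and 1029 counts in the remaining fibroblasts, with up to 192 in a single cell, so such a cell can set much of a bound. APOA1 was also found in 1172 of the 4330 PI16/PCOLCE2 fibroblasts. Few of the 1858 remaining fibroblasts held these genes: APOA1 was found in 187, KRT18 in 53, KRT19 in 50, MMP7 in 46, CD74 in 35, TFF3 in 21 and CXCL17 in 19. A single cell held up to 192 APOA1, 82 KRT19 or 65 TFF3 UMIs. These lower levels therefore do not describe the remaining fibroblasts as a whole. The other genes the naming rule gave here were TST, ACOT8, ANKMY2 and AHCTF1, with 0 or 1 member counts in libraries 1 and 2, against 22 to 235 counts in the remaining fibroblasts.

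Some genes stood apart by counting error without passing the call, and those named in the next sentences were picked after their values were seen. IGFBP7, a secreted protein that binds insulin-like growth factors and is abundant around vessels, stood at 2737, 2206 and 1832 CPM in members, against 2174, 989 and 555 CPM in the remaining fibroblasts. Its ratios were 1.26 (1.13 to 1.41), 2.23 (1.93 to 2.56) and 3.30 (2.71 to 4.0), higher in each of the 3 libraries. Without the highest member of each library they were 1.17 (1.04 to 1.31), 2.05 (1.75 to 2.38) and 2.35 (1.82 to 2.99), still above 1. COL12A1, the chain of a collagen that lies on the surface of collagen fibrils, had ratios of 1.49 (1.04 to 2.11), 1.69 (1.14 to 2.43) and 2.17 (1.43 to 3.17), but without the highest member the intervals of libraries 1 and 2 included 1. NR2F2, a nuclear receptor of venous and mesenchymal cells, stood at 179, 435 and 287 CPM in members against 150.4, 122 and 100.2 CPM in the remaining fibroblasts, and its interval included 1 in library 1.

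PRRX2, a homeobox factor of mesenchyme, had ratios of 1.33 (0.909 to 1.90), 2.25 (1.40 to 3.45) and 2.68 (1.59 to 4.26). ANGPTL1, a secreted angiopoietin-like protein, had ratios of 1.37 (0.751 to 2.37), 3.09 (2.18 to 4.26) and 1.91 (1.17 to 2.96). For NR2F2, PRRX2 and ANGPTL1 the difference from the remaining fibroblasts was therefore beyond counting error in libraries 2 and 3 and not in library 1. Without the highest member this still held for NR2F2 and PRRX2, while ANGPTL1 in library 3 had a ratio of 1.53 (0.846 to 2.54).

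In the other direction, PEG3, an imprinted zinc-finger gene, stood at 199, 130.4 and 191 CPM in members against 340.2, 415 and 575 CPM in the remaining fibroblasts, with ratios of 0.586 (0.385 to 0.863), 0.314 (0.162 to 0.549) and 0.333 (0.172 to 0.583). MFAP5, a microfibril protein, stood at 468, 1206 and 653 CPM in members against 816, 1807 and 1458 CPM. CLEC3B, or tetranectin, stood at 3177, 7975 and 4253 CPM in members against 3831, 9015 and 7535 CPM. All 3 genes were lower in members beyond counting error in libraries 1, 2 and 3. RSPO3, a secreted WNT amplifier, was lower in libraries 2 and 3, at 130.4 and 223 CPM against 382 and 419.9 CPM, and stood at 186 CPM against 192 CPM in library 1.

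The hedgehog pathway was read from a list of 20 genes, of which 19 were matched and not used by the rule. Ligand transcripts were not detected in members: SHH, IHH and DHH had 0 counts. The receptor gene PTCH1, which is also a standard target of the pathway, had 0, 1 and 4 counts in members, or 0, 10.9 and 63.7 CPM, against 14.9, 11.6 and 9.54 CPM in the remaining fibroblasts. GLI1, the transcription factor most directly induced by the pathway, had 0 counts in members of each library. A count of 0 allows a level of up to 20.6, 32.6 and 47.8 CPM there, so GLI1 was not detectable at this depth.

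The coreceptors were better covered. BOC stood at 96.3, 65.2 and 112 CPM in members against 70.5, 46.4 and 58.1 CPM in the remaining fibroblasts, CDON at 61.9, 86.9 and 127 CPM against 78.6, 101 and 168 CPM, and GAS1 at 131, 478 and 112 CPM against 197, 238 and 129 CPM. For BOC and CDON every interval included a ratio of 1, while GAS1 had a ratio of 2.01 (1.45 to 2.71) in library 2 and intervals that included 1 in libraries 1 and 3. GPC3, a glypican that competes with PTCH1 for hedgehog ligands, stood at 708, 380.3 and 223 CPM against 611, 648 and 274 CPM, and was lower in library 2 beyond counting error (ratio 0.587, 0.408 to 0.818). Of the 5 hedgehog genes measured against the remaining fibroblasts, 0 were called, and their median log2 ratio was -0.28 beside -0.05 over all genes.

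In PI16/PCOLCE2 fibroblasts with the 3 genes, where counts were larger, the GLI1 and PTCH1 levels were above those of the cells without the set. GLI1 was at 22.6, 12.4, 17.2 and 13.1 CPM in libraries 1 to 4 with the set, against 3.99, 3.33, 3.75 and 1.98 CPM without it, on 38, 4, 6 and 15 counts with the set. PTCH1 was at 55.9, 40.4, 14.4 and 22.7 CPM with the set, against 12.5, 10.2, 4.19 and 11.6 CPM without it. The order was the same in 4 of 4 libraries for both genes, which were read in cells outside the members.

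The endothelin list gave little beyond EDNRA itself. The second receptor EDNRB and the ligands EDN1, EDN2 and EDN3 had 0 counts in members. ECE1, the enzyme that cuts the endothelin precursor, stood at 96.3, 54.3 and 15.9 CPM in members against 107, 61.4 and 66.8 CPM in the remaining fibroblasts. Of 2 endothelin genes measured, 0 were called. Outside fibroblasts, EDNRA was found in 24 of 71 mural cells of library 2, at 120.4 CPM beside 1.70 CPM in free RNA. HHIP was found in 261 of 1467 acinar cells of that library, at 11.1 CPM beside 7.95 CPM in free RNA.

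Genes that control coagulation and related proteases were read from a further list. TFPI2, a secreted inhibitor of the tissue factor complex and of plasmin, stood at 1692, 1119 and 494 CPM in members against 1509.8, 461 and 342 CPM in the remaining fibroblasts, and its ratio of 2.43 (1.97 to 2.96) in library 2 excluded 1. Without the highest member, which held 34 of 103 TFPI2 UMIs there, the ratio was 1.71 (1.33 to 2.17). F2R, the main thrombin receptor, stood at 282, 86.9 and 47.8 CPM against 375, 157 and 28.6 CPM. SERPING1, the inhibitor of the first complement protease and of kallikrein, stood at 1967, 1032 and 621 CPM against 1686, 1054 and 764 CPM, and PROS1, or protein S, at 323, 304 and 239 CPM against 266, 298 and 235 CPM. Of 9 genes of this list measured, 0 were called in either direction, with a median log2 ratio of 0.16 beside -0.05 over all genes.

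Over all 21 functional lists, 214 genes were measured against the remaining fibroblasts, 0 were called higher and 3 lower (1.40%), near the 1.89% called lower over all genes. The called list genes were FGF10 (4, 1 and 3 member counts), a growth factor of the pancreatic mesenchyme, PLOD2 (0, 1 and 3 counts), a collagen lysyl hydroxylase, and FABP5 (2, 1 and 22 counts), a fatty acid carrier, all called lower from counts too few to pass the demand on expected counts. FABP5 was not lower in library 3, where its ratio was 1.62 (1.01 to 2.48), or 0.725 (0.330 to 1.39) without the member that held 13 of its 22 UMIs. All 17 immediate early genes were measured and 0 were called, with a median log2 ratio of 0.31. FOS among them stood at 3563, 1510.2 and 1370.0 CPM in members against 3338, 677 and 1086 CPM, and JUNB at 1967, 934 and 733 CPM against 2013, 442 and 371 CPM. Such genes respond to tissue dissociation, and their part in the other differences was not tested. The 11 basement membrane genes measured had a median log2 ratio of -0.37 and 0 calls.

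The elastin gene, picked after its values were seen, differed widely between the members of different libraries. ELN stood at 179, 23327 and 1179 CPM in members, against 153, 1945 and 590.5 CPM in the remaining fibroblasts. In library 2 the 20 members held 1 to 480 ELN UMIs with a median of 24, and 11 of 20 (55.0%) held at least 20, against 42 of 1195 remaining fibroblasts (3.51%). In library 1 no member held more than 5 ELN UMIs and in library 3 none held more than 16. Without the member of highest ELN the level in library 2 was 18882 CPM, so it did not rest on 1 cell.

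**Figure D4:**
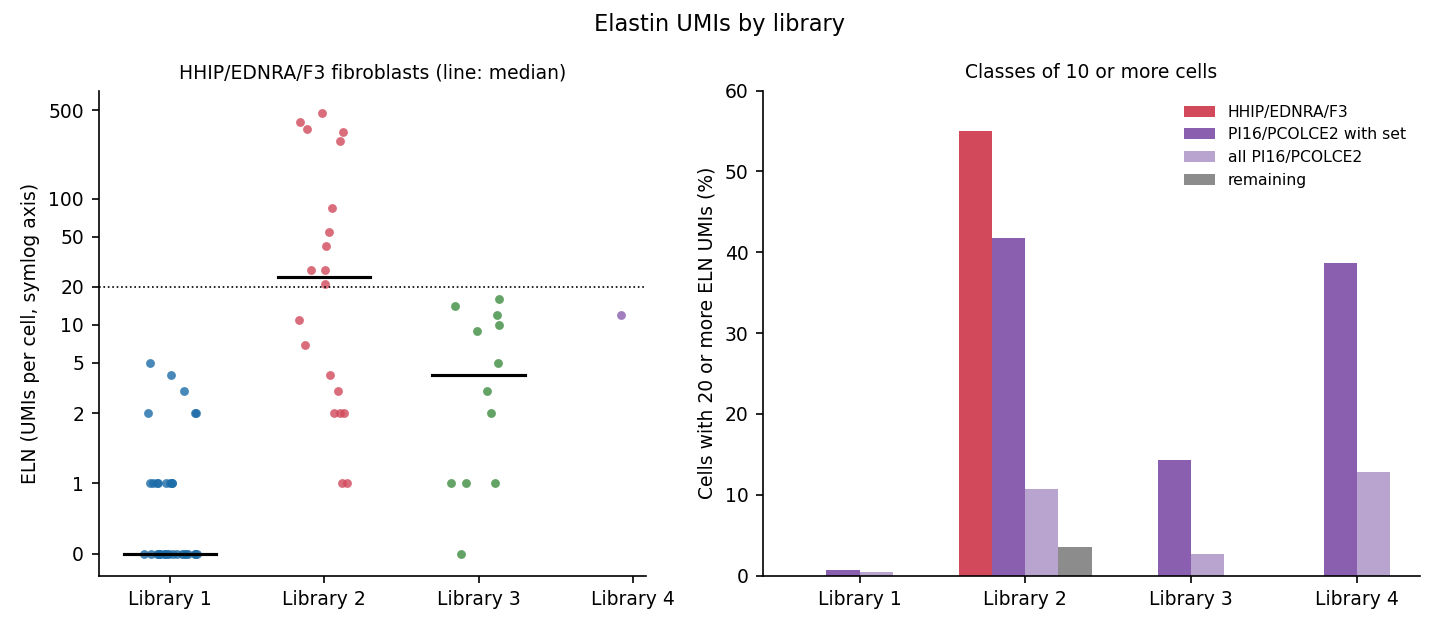
The left panel gives ELN UMIs of each member by library with the median as a line, and the right panel the percent of cells with at least 20 ELN UMIs by class and library. High values appear in library 2, where 11 of 20 members pass 20 UMIs, and among PI16/PCOLCE2 fibroblasts with the set in libraries 2, 3 and 4.

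Of the list of elastic fibre and small proteoglycan genes 16 were measured and 0 were called, and the median log2 ratio was 0.0047 beside -0.05 over all genes. LOX and MFAP4 of this list were picked after their values were seen. In library 2 LOX, which crosslinks elastin and collagen, stood at 826 CPM in members against 239 CPM (ratio 3.46, 2.71 to 4.36), and MFAP4, an elastic fibre glycoprotein, at 1793 CPM against 565 CPM (3.17, 2.70 to 3.71). In library 1 LOX stood at 55.0 CPM against 50.1 CPM and MFAP4 at 351 CPM against 412 CPM, so neither differed beyond counting error there. MFAP5 of the same list was lower in members of library 2, at 1206 CPM against 1807 CPM. ITGBL1, a secreted integrin-like protein, had 522 CPM in members of library 2 against 27.4 CPM, with 6.88 and 0 CPM in members of libraries 1 and 3. Within library 2, ITGBL1 was found in 6 of the 11 members with at least 20 ELN UMIs and in 2 of the 9 others. IL1RL1, the receptor of interleukin 33, was found in 6 of 11 against 1 of 9, and SERPINE2 in 7 of 11 against 1 of 9. TAGLN, a marker of smooth muscle, was found in 7 of 11 against 1 of 9 as well, and its part in the elastin pattern was not tested. F3 (9 of 11 against 7 of 9) and EDNRA (3 of 11 against 4 of 9) were found in both. These splits are of 20 cells and carry no test.

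The elastin pattern was also found on the other side of the PI16 and PCOLCE2 limit. At least 20 ELN UMIs were held by 41.8% of PI16/PCOLCE2 fibroblasts with the set in library 2, 14.3% in library 3 and 38.7% in library 4. Over all PI16/PCOLCE2 fibroblasts the shares were 10.7%, 2.74% and 12.8%. In library 1 the shares were 0.676% with the set and 0.392% over all.

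Large differences between libraries were shared by the fibroblasts around the members. COL1A1 stood at 1403, 33562 and 17188 CPM in members and at 1578, 23190.4 and 20054 CPM in the remaining fibroblasts, so library 1 was low in both. C3, the central complement protein, ran the other way, at 3817, 663 and 733 CPM in members and 3048, 1558 and 1111 CPM in the remaining fibroblasts. IGF2, the fetal growth factor, stood at 2276, 3346 and 3536 CPM in members and 1613, 6051 and 3414 CPM in the remaining fibroblasts. Animal, age and library cannot be told apart behind these orders.

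Against PI16/PCOLCE2 fibroblasts more genes separated. With the demand on expected counts, 560 genes were measured, of which 2 were higher (0.357%) and 5 were lower (0.893%) in members. The higher ones were LOC102188618 and CCL26, or eotaxin 3, a chemokine for eosinophils. CCL26 had 578, 706 and 0 CPM in members, against 269.9, 31.0 and 3.82 CPM in PI16/PCOLCE2 fibroblasts, and was detected in 12 of 33, 6 of 20 and 0 of 12 members. A single member held 28 of its 84 UMIs in library 1 and another 35 of 65 in library 2. Without the highest member the ratio of CCL26 to PI16/PCOLCE2 fibroblasts was 1.46 (1.10 to 1.91) in library 1, which ends the call. LOC102188618 had ratios of 1.81 (1.02 to 2.98) and 1.88 (1.17 to 2.86) without its highest member, so its call ended too. Against the remaining fibroblasts, at 413, 41.2 and 5.17 CPM, the ratio of CCL26 was 1.40 (1.08 to 1.78) in library 1 and 17.1 (12.8 to 22.7) in library 2, so CCL26 was not called there. Leaving out the highest member gave 0.956 (0.706 to 1.28) and 8.23 (5.43 to 12.1).

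The 5 lower genes were SEMA3C, MFAP5, MEDAG, THY1 and TNXB. SEMA3C, a guidance molecule, stood at 41.3, 109 and 63.7 CPM in members against 266, 244 and 526 CPM in PI16/PCOLCE2 fibroblasts, and its median log2 ratio was -1.91. MFAP5 stood at 468, 1206 and 653 CPM against 2276, 3173 and 3122 CPM, with a median log2 ratio of -1.84. THY1, the surface glycoprotein CD90, stood at 248, 119.5 and 175 CPM against 503, 415 and 558 CPM, and TNXB, the matrix protein tenascin X, at 928, 956 and 526 CPM against 2164, 2109.7 and 1654 CPM. MEDAG, which promotes fat cell formation in mouse, stood at 103, 239 and 112 CPM against 388, 619 and 291 CPM. Each of the 5 was lower in library 3 as well, which the call had not used. None of the 5 was called against the remaining fibroblasts with the same demand on expected counts. Fibroblasts under 3 UMIs of PI16 and PCOLCE2 with 0 of the set, thinned to 3000 UMIs, held SEMA3C at 50.6, 91.6 and 171 CPM in libraries 1 to 3. Low SEMA3C was thus not particular to members in libraries 1 and 2, while MFAP5 was lower in members than in the remaining fibroblasts too.

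The call without the demand on expected counts gave 2 higher (0.0201%) and 744 lower genes (7.46%) of 9973 measured, and 715 of the 744 had at most 3 member counts in each library. The 12 lowest by the naming rule were APOA1, SST, PRG4, IMPA2, KIAA1161, EFNA5, CADM3, PTX3, SOGA1, C19H17orf58, CARD10 and THSD4, each with 0 or 1 member counts in libraries 1 and 2. Of the 12 adventitial fibroblast genes measured, 4 were lower (CD55, SEMA3C, MFAP5 and GFPT2) and 0 higher, with a median log2 ratio of -1.03 beside -0.17 over all genes. That list was chosen with PI16 and PCOLCE2 fibroblasts in mind. Of 15 hedgehog genes measured, GLI1, GLI3 and DISP1 were called lower, on 0 or 1 member counts in libraries 1 and 2. Of 6 endothelin genes measured, PLCB1 was called lower. Over the 21 functional lists, 27 of 309 genes measured were called lower (8.74%) and 0 higher, near the 7.46% called lower over all genes.

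Set against the 519 PI16/PCOLCE2 fibroblasts that also held at least 2 UMIs of the 3 genes, members were lower in several genes, picked after their values were seen. In libraries 1 to 3, MFAP5 had ratios of 0.241 (0.186 to 0.306), 0.436 (0.355 to 0.532) and 0.278 (0.198 to 0.380). SEMA3C had ratios of 0.158 (0.0578 to 0.347), 0.282 (0.132 to 0.536) and 0.129 (0.0348 to 0.336). FBN1, or fibrillin 1, stood at 770.3, 1456 and 844 CPM in members against 2527, 2863 and 2016 CPM in those cells, and CLEC3B at 3177, 7975 and 4253 CPM against 7834, 14470.0 and 8799 CPM. CD248, ANXA2, TIMP2 and DPT, of which DPT was used by the gate, were lower in members too. For MFAP5 and CLEC3B the remaining fibroblasts, given above, also lay below those cells in libraries 1 to 3. Levels below those cells were thus not particular to members for both genes. For FBN1, CD248, ANXA2, TIMP2 and DPT the remaining fibroblasts are not given here, so the same question is not settled. HHIP itself stood at 399, 279.8 and 209.6 CPM in those cells, above the members in each library.

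SERPINE2 differed between the classes by library. It stood at 61.9, 239 and 112 CPM in members, against 715, 152 and 204 CPM in PI16/PCOLCE2 fibroblasts with the set. The ratio was 0.0866 (0.0395 to 0.165) in library 1, and the intervals included 1 in libraries 2 and 3 (1.57, 0.904 to 2.64, and 0.547, 0.212 to 1.19). IGFBP7 had ratios of 1.00 (0.900 to 1.11), 1.44 (1.22 to 1.70) and 2.5 (1.99 to 3.13) in the same comparison, so it was higher in members of libraries 2 and 3.

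The 519 cells were also compared with the 3811 PI16/PCOLCE2 fibroblasts below 2 UMIs of the set, a comparison added after the data were seen. It used 4 libraries, and 3 genes of 2129 measured were higher (0.141%) and 0 lower (0%) with the demand on expected counts. Without it the same count of 3 stood among 9332 measured genes (0.0321%). SERPINE2 stood at 715, 152, 204 and 166 CPM with the set against 48.4, 7.78, 4.19 and 21.5 CPM without it, with a median log2 ratio of 3.99. FMOD, or fibromodulin, had a median log2 ratio of 1.59, and CPE, or carboxypeptidase E, of 1.49. In members CPE stood at 55.0, 522 and 112 CPM against 46.1, 74.9 and 63.2 CPM in the remaining fibroblasts, and FMOD at 34.4, 97.8 and 47.8 CPM against 20.3, 28.7 and 58.5 CPM. CPE and FMOD were thus above the remaining fibroblasts beyond counting error in library 2 and not in libraries 1 and 3. Without the highest member this held for CPE (ratio 5.19, 3.53 to 7.41) and not for FMOD (2.45, 0.886 to 5.45).

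The dependence on depth was checked by thinning each gated fibroblast to 3000 UMIs. On the low side of the PI16 and PCOLCE2 limit, SERPINE2 was found in 2 of 14 cells with 2 UMIs of the set and 1 of 7 with 3 or more in library 1, against 8 of 145 with 0. In library 2 it was found in 1 of 9 and 3 of 6 cells, against 9 of 1143, and in library 3 in 0 of 3 and 2 of 3 cells, against 5 of 448. On the high side the shares of cells with SERPINE2 at 3 or more UMIs of the set were 65.5%, 31.3%, 85.7% and 55.6% in libraries 1 to 4, against 7.97%, 2.48%, 1.19% and 3.17% at 0. At 2 UMIs they were 42.5%, 0%, 38.9% and 4.76%, so there library 2 lay below its share at 0 (0 of 15 cells) and library 4 below its 13.5% at 1 UMI. NR2F2 on the low side was found in 4 of 7, 6 of 6 and 3 of 3 cells with 3 or more UMIs, against 51 of 145, 317 of 1143 and 118 of 448 with 0. After thinning, both genes were thus found more often at 3 or more UMIs than at 0 in each of these libraries, while at exactly 2 UMIs SERPINE2 was not always above its share at 0.

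**Figure D5:**
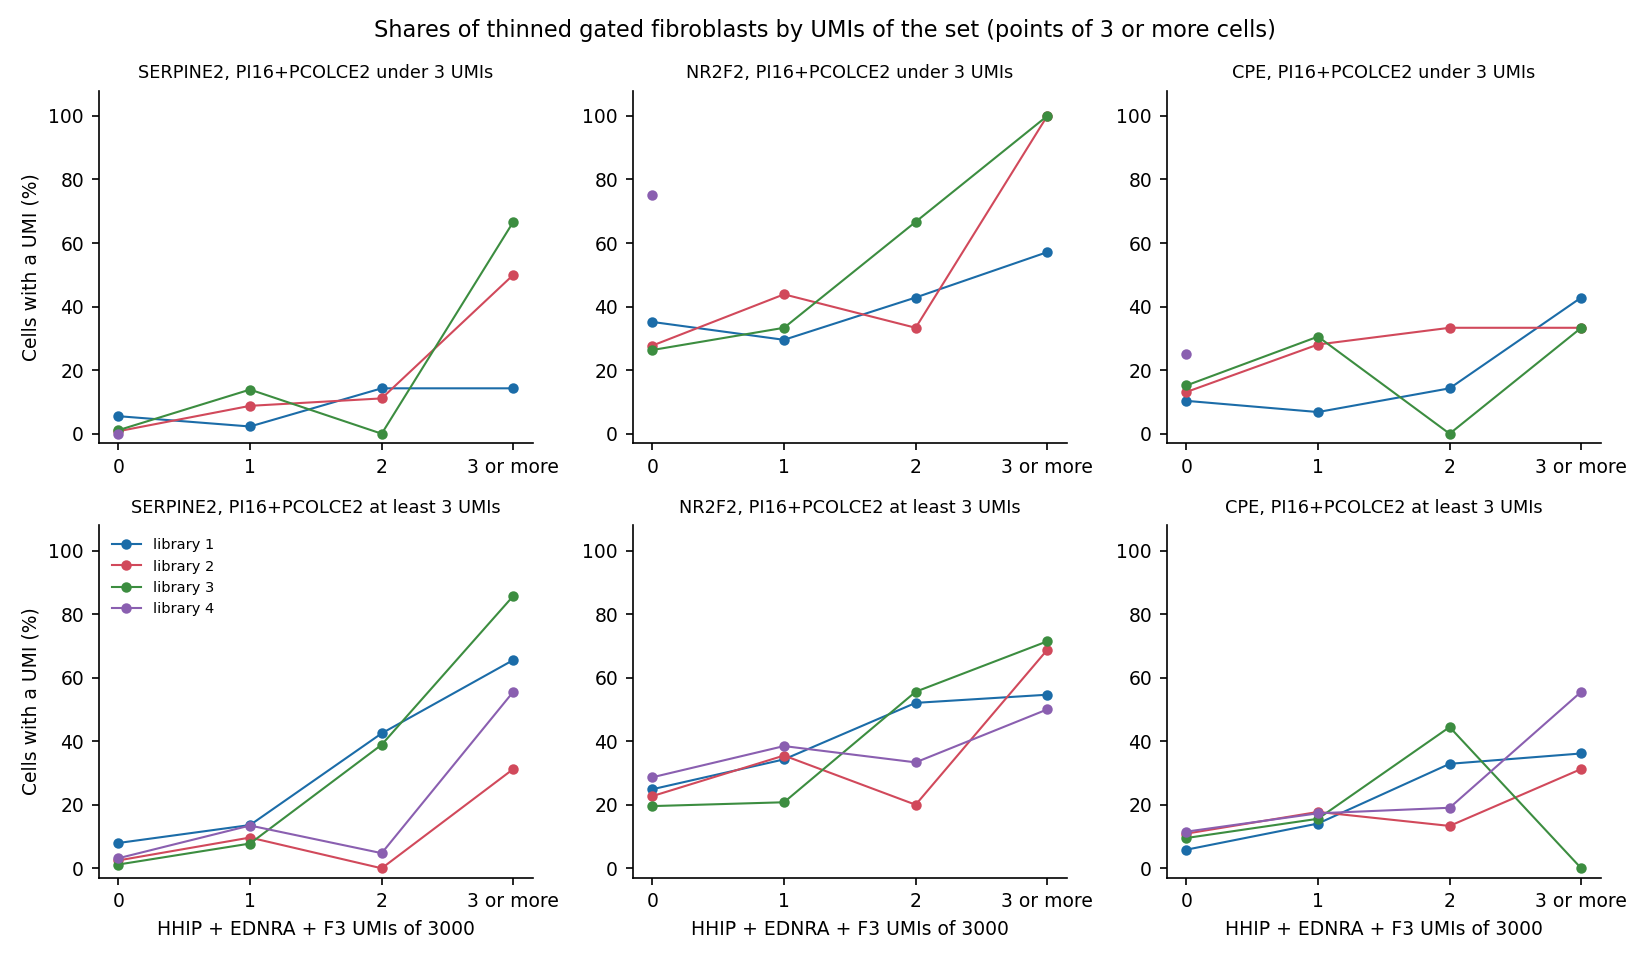
Percent of gated fibroblasts, thinned to 3000 UMIs, with at least 1 UMI of SERPINE2, NR2F2 or CPE, by UMIs of HHIP, EDNRA and F3 (0, 1, 2, 3 or more), with a line per library; the rows split cells at 3 UMIs of PI16 and PCOLCE2, and points need at least 3 cells. SERPINE2 is highest at 3 or more UMIs of the set on the high side of the limit in all 4 libraries.

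Endothelial, immune and ductal markers were low in the members, while acinar and endocrine markers were not. Of 8 endothelial markers 7 were at 0, among them VWF, KDR and CLDN5, and their summed level was 0 to 6.88 CPM over libraries 1 to 3. In the remaining fibroblasts it was 4.07 to 4.37 CPM, so endothelial markers were low in both classes. Of 8 immune markers 6 were at 0 (6.88 to 15.9 CPM, against 12.7 to 115 CPM in the remaining fibroblasts). Of 8 ductal markers 5 were at 0 (15.9 to 54.3 CPM, against 156 to 352 CPM in the remaining fibroblasts). Acinar markers summed to 2198 to 4539 CPM in members against 2231 to 3989 CPM in the remaining fibroblasts, and endocrine markers to 1299.8 to 4618 CPM against 1705 to 3309.6 CPM. The rule itself required that PECAM1 among the endothelial markers and PTPRC among the immune markers be absent. It also capped PRSS2, CLPS and SYCN among the acinar markers and INS and PPY among the endocrine markers. The 10 fibroblast markers were all detected, at 21348 to 87799 CPM against 22005 to 70496 CPM. Only 2 of these 10 were not used by the rule, so their detection was largely set by it and supports nothing.

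Single cells set a few of the lineage values. All 10 pericyte and smooth muscle markers were detected in members, summing to 330.1 to 4253 CPM against 179 to 248 CPM in the remaining fibroblasts. In library 3 a cell of 9176 UMIs held 180 of 181 ACTA2 UMIs, 36 of 36 MYH11 and 167 of 167 TAGLN, and without it the sum there was 168 CPM. In library 2 a cell of 6544 UMIs held 257 of 259 GCG UMIs, and the endocrine sum was 1135 CPM without it and 4618 CPM with it. A single cell held 269 of 660 acinar marker UMIs in library 1 and another 106 of 290 in library 2, and without them the acinar sums were 2770.2 and 2091 CPM, against 4539 and 3151 CPM with them. In all, 6 members had at least 1% of their UMIs in the markers of another lineage (3, 2, 1 and 0 in libraries 1 to 4), beside 43 of the remaining fibroblasts, and the part of these cells in the values above was not tested except where a value without them is given.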

How the data were processed

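The deposited file is an aggregated, unfiltered matrix of whole UMI counts for 27137 genes and 4 libraries, per the file headers. Cell Ranger 3.1.0, Seurat 3.1.1 and bcl2fastq 5.01 are named in the submitters' processing notes, whereas the matrix header names version 5.0.1 of Cell Ranger. Genome build and annotation: not given in the sources used here. Gene names are those of the feature list, and 27103 IDs matched the RefSeq table of ARS1.2. Libraries were not assigned to ages, because no label gives them, so they are not replicates and nothing was tested.

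From the counts, UMIs were summed per class and library and scaled to CPM. Genes were called at a log2 ratio of 1 after a pseudocount of 1 CPM in every library with at least 20 cells of both classes, where the class with the higher level held 20 or more counts, leaving out 20 genes of the rule. An added form also required 20 counts expected in the lower class. The text names the 12 highest and 12 lowest called genes with a symbol other than LOC, and the markers SERPINE2 and CCDC102B. It also names hedgehog and endothelin genes, the list genes called against the remaining fibroblasts, and some of those called against PI16/PCOLCE2 fibroblasts. Others were picked after their values were seen. The members and lists were chosen with earlier results of these data known, and 445 of 467 list genes were matched. Intervals are exact at 95%. Named genes were also read without the member holding most of their UMIs, which was added after seeing the data. No doublets were removed in the reported values, and removal of the top 5% by Scrublet (scanpy 1.11.5) was an alternative. The calling code was tested on simulated data. Software was Python 3.11.15, numpy 2.4.6, pandas 2.3.3, scipy 1.17.1 and matplotlib 3.10.9. Precision is limited by 145402, 92040, 62775 and 4404 member UMIs in libraries 1 to 4.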

Additional observations from a re-analysis of the deposited data

How the results depend on the processing

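No paired analysis was possible because the libraries carry no replicate number and no test was run. Of genes higher in members than in the remaining fibroblasts (1), the count was 3 with the rule read after thinning, 13 without the top 5% by Scrublet, 0 with libraries of at least 10 cells, 11 without cells with 1% of other-lineage markers, and 1 to 57 leaving out a library. Of genes lower (93), it was 42 at a pseudocount of 10 CPM, 12 at 50 counts, 248 after thinning, 375 by Scrublet, 1 with 20 counts expected, 31 with 10 cells, 364 without other-lineage cells, and 93 to 2841 leaving out a library. Against PI16/PCOLCE2 fibroblasts, genes higher (2) numbered 35 by Scrublet, 4 against PI16/PCOLCE2 cells with under 2 UMIs of the set, 1 with 10 cells, 34 without other-lineage cells, and 2 to 45 leaving out a library. Genes lower (744) numbered 139 at 10 CPM, 325 at 50 counts, 466 after thinning, 1896 by Scrublet, 5 with 20 expected, 446 with 10 cells, 1992 without other-lineage cells, and 744 to 3131 leaving out a library. Called list genes (29) numbered 16, 18, 18, 88, 4, 19 and 85 under these 7 settings in that order, and 29 to 126 leaving out a library. The Scrublet and other-lineage settings left 18 members in library 2, so that only library 1 entered, and leaving out library 1 or 2 likewise left a single library; the larger counts follow from a call that 1 library can make. The calls of members used libraries 1 and 2, so leaving out library 3 or 4 could not change them. The lower ends of the ranges above thus repeat the main counts. At least 10 cells added library 3, where LOC102188618 fell short of a log2 ratio of 1. With the set against without it (3 higher, 0 lower), 50 counts gave 0 higher, Scrublet removal 1 lower, and leaving out a library 3 to 6 higher and 3 to 29 lower (29 without library 1, 9 without library 4). The shares of members were 0.484% in library 2 and 0% in library 4 at 5000 UMIs per cell, and 0.569%, 0.216% and 0.170% in libraries 1 to 3 at 4 UMIs of the set. The log2 ratios of HHIP, EDNRA and F3 in cells chosen by the other genes (3.83, 3.29 and 2.33) were 2.26, 1.81 and 1.67 at a pseudocount of 10 CPM, and 2.71, 2.40 and 2.55 in PI16/PCOLCE2 fibroblasts; leaving out a library gave 3.39 to 4.27 for HHIP and 3.09 to 3.50 for EDNRA. Calls at 5000 UMIs per cell and at 4 UMIs of the set had too few members per library to be made. Without the member with most UMIs of the gene, a setting chosen after seeing the data, some ratios to the remaining fibroblasts fell from above 1 to below 1. Among them were LOC102188618 (0.552) and CCL26 (0.956) in library 1, and GCG (0.0881) and CHGA (0.797) in library 2. In library 3 FABP5 (0.725) and DES (0.587) did so. A gene below 20 counts in members could not be called higher. The causes of the other shifts were not tested.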
